A study of Danio rerio with 3 samples.

Results

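The cells described here are retinal glia of zebrafish larvae that carried transcripts of both fgf24 (ENSDARG00000037677) and igf2b (ENSDARG00000033307), called members below. They were chosen by measured values of 11 genes. A cell was a member when glula (ENSDARG00000099776) and apoeb (ENSDARG00000040295) together made up at least 150 of each 10000 unique molecular identifiers (UMIs, counted transcripts), when it held at least 2 UMIs of fgf24 and at least 1 of igf2b, no UMI of the chemokine gene cxcl18b, and at most 2 UMIs in total of the proliferation genes mki67, top2a, cdk1, pcna, mcm5 and rrm2.1. Of 26471 cells that passed the quality filters in 3 libraries, 2261 were members, with 1619 in the no ablation library, 477 in the Lws2-ablation library and 165 in the library labelled Sws2-ablation. The glial gate alone held 4972, 2120 and 1423 cells in that order, which is the order used for every set of 3 values below.

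Single cells were sorted for green fluorescence from larvae at 9 days post fertilization (dpf) and measured by droplet-based RNA sequencing at 3 days post injury (dpi), with 1 library of pooled larvae per condition and the number of larvae not given in the sources used here. All larvae carried the transgenes her4.1:dRFP and gfap:GFP, the second driven by the promoter of a protein of mature Müller glia, whose GFP can persist in the progeny of these cells. The no ablation larvae carried no further transgene, the Lws2-ablation larvae also carried lws2:nfsb-mCherry, which places nitroreductase in long wavelength sensitive cones, and the Sws2-ablation larvae also carried sws2:nfsb-mCherry, which places it in short wavelength sensitive cones. All 3 groups, the controls included, received 10 mM metronidazole for 48 h from 6 dpf, so that nitroreductase alone turned the drug into a toxin in the ablation groups.

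The libraries held 43017721, 75131968 and 52577782 UMIs in all, and 8190, 10430 and 7851 cells were kept of 8336, 10557 and 7896 barcodes. The medians of UMIs per kept cell were 4380.5, 5858 and 5027. The sources name 2 generations of the sequencing chemistry without assigning them to libraries, so that chemistry, library and condition cannot be told apart. In the library labelled Sws2-ablation EGFP stood at 2.21 CPM in the members (counts scaled to a common total per library and class), against 1538 and 1427 CPM in the other 2 libraries, although all lines are described as gfap:GFP, so it is named by its label throughout. Between 17 and 29 kept barcodes were shared by any 2 libraries, none of them by 2 members.

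Müller glia are the main support cells of the retina. They take up and convert glutamate through glutamine synthetase, the product of glula, carry lipids on apolipoprotein E, the product of apoeb, and buffer ions and water, and in zebrafish they can re-enter the cell cycle after damage and give rise to new neurons. Fgf24 belongs to the secreted fibroblast growth factors of the Fgf8 type, which act on receptor tyrosine kinases and switch on their own inhibitors, the Sprouty proteins and dual-specificity phosphatases among them. Igf2b is a secreted insulin-like growth factor. The position of a cell in the eye is marked by other genes. In the ventral retina Vax transcription factors and the retinoic acid producing enzyme Aldh1a3 are used, in the dorsal retina Tbx5, ephrin-B2 and Aldh1a2, and Cyp26 enzymes break retinoic acid down.

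The members carried the genes of Müller glia, as the glial gate set. The summed level of glula was 21208, 16759 and 8928 CPM and that of apoeb 20923, 22511 and 19822 CPM. Genes that the rule did not use gave the same picture. The 29 genes of a list of glial homeostasis summed to 36352 CPM in the no ablation members and 51985 CPM in the Lws2-ablation members. The retinaldehyde-binding gene rlbp1a stood at 2251, 3446 and 2758 CPM and the second glutamine synthetase gene glulb at 7933, 8779 and 8692 CPM. Markers of microglia summed to 0.851, 3.32 and 2.21 CPM, 12 of 18 of them had no UMI in the members of any library, and no globin or other red blood cell marker was detected. Markers of cones and rods summed to 104, 203 and 34.6 CPM and general neuronal markers to 872, 798 and 342 CPM.

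The rule alone fixed the levels of its own genes, which are given as a description. fgf24 stood at 942, 733 and 545 CPM in the members and igf2b at 478, 468 and 243 CPM. The median member held 5, 4 and 4 UMIs of fgf24 and 2, 3 and 2 UMIs of igf2b, and the highest held 24, 16 and 14 UMIs of fgf24 and 18, 17 and 9 UMIs of igf2b. A part of the members lay at the limits of the rule, with exactly 2 UMIs of fgf24 in 15.8, 17.4 and 24.8% of all members and exactly 1 UMI of igf2b in 36.7, 26.6 and 44.8%. Just outside were 287, 85 and 41 cells that had 1 UMI of fgf24 and met every other gate. At the glial gate 32, 8 and 6 members were within 20 UMIs per 10000 of the limit, and 14, 8 and 10 cells were as close below it.

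UMIs of both genes were also read in some cells with little glula and apoeb and with markers of photoreceptors or neurons. The source of these UMIs was not tested. After each cell was thinned to 3000 UMIs, the shares of cells with a UMI among cells with cone or rod markers were 4.2, 0.380 and 0.875% for fgf24 and 2.1, 0.633 and 0.438% for igf2b. In cells with neuronal markers they were 2.67, 1.15 and 0.893% and 3.74, 2.16 and 1.79%. Among the other resting glia, which met the same limits on cxcl18b and proliferation genes but lacked 1 or both growth factor UMIs required, fgf24 was found in 53.0, 31.4 and 35.4% and igf2b in 19.6, 19.3 and 11.7% of thinned cells. Those of the members, 93.6, 88.9 and 87.3% for fgf24 and 76.5, 71.2 and 61.2% for igf2b, were set by the rule. The rule cut through a range of fgf24 levels, and most of the other resting glia of the no ablation library held the transcript too.

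Before the limits on cxcl18b and proliferation were applied, glia with both growth factor genes made up 34.7% of the glia without ablation (95% exact binomial interval 33.3 to 36.0), 36.3% (34.2 to 38.4) after Lws2-ablation and 21.9% (19.8 to 24.2) in the library labelled Sws2-ablation. Of these cells 4.59, 33.9 and 44.2% held a UMI of cxcl18b, a gene of reactive glia, and 1.74, 6.89 and 5.45% were over the proliferation limit. In the glia without both growth factor genes the cxcl18b shares were 5.91, 36.0 and 28.3%. The intervals of these shares overlapped in the first 2 libraries (30.6 to 37.4 and 33.5 to 38.7% after Lws2-ablation) and did not in the library labelled Sws2-ablation (38.6 to 49.9 and 25.6 to 31.0%). These shares come from cells not thinned to a common depth. In the library labelled Sws2-ablation the members held a median of 7919 UMIs against 5367 in the other glia. The part of depth in these shares was not tested.

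With every gate applied, members were 32.6% of the glia in the no ablation library (31.3 to 33.9), 22.5% after Lws2-ablation (20.7 to 24.3) and 11.6% in the library labelled Sws2-ablation (9.98 to 13.4). As a share of the resting glia, cells within the same limits on cxcl18b and proliferation genes, they were 34.9% (33.5 to 36.2), 36.6% (33.96 to 39.3) and 17.4% (15.08 to 20.01). The no ablation and Lws2-ablation shares of resting glia overlapped in their intervals, and the third was lower. After thinning to 3000 UMIs they were 22.5, 14.6 and 6.39% of all glia, and without the cells with the highest doublet scores, which held 8.77, 8.39 and 6.06% of the members, 32.4, 22.7 and 11.4%. With 1 library per condition these shares have no replicate error, the intervals cover counting error only, and a lower share cannot be told apart from less fgf24 or igf2b RNA per cell.

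**Figure D1:**
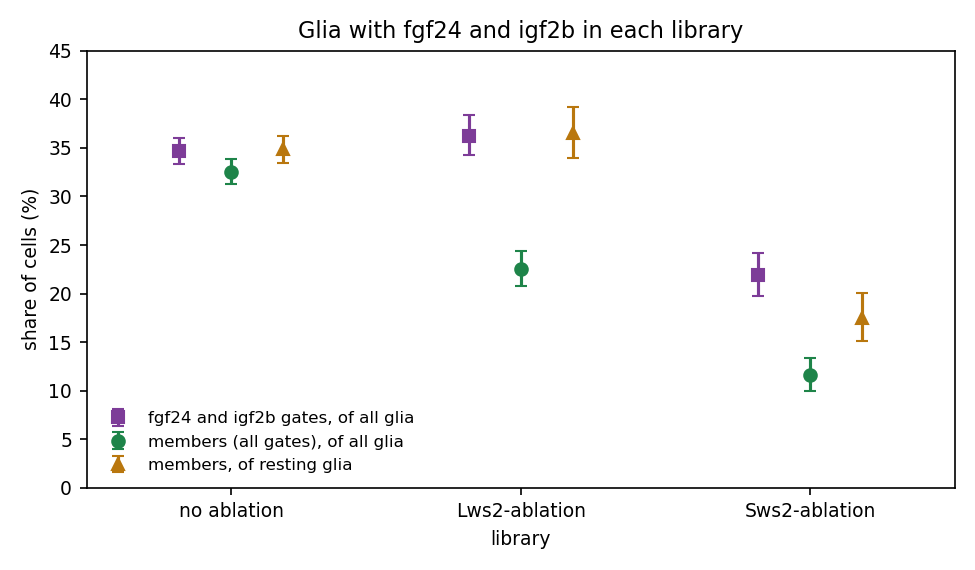
Share of glia (%, vertical axis) in each of the 3 libraries (horizontal axis). Squares give cells with both growth factor genes among all glia, circles the members among all glia and triangles the members among resting glia, with 95% exact binomial intervals. The circles fall from 32.6 to 22.5 and 11.6%, whereas the triangles stand at 34.9, 36.6 and 17.4%.

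The members were next compared with the 6254 other glia (3353, 1643 and 1258), to ask which genes outside the rule went with fgf24 and igf2b. UMIs were summed per library and class, and edgeR's quasi-likelihood test with the library as a block asked for a difference common to the 3 libraries, each of another condition. Of 12357 genes tested, 340 were higher in the members (2.75%) and 309 lower (2.5%) at an adjusted p under 0.05. Since the limits on cxcl18b and proliferation genes were set on the members alone, the other resting glia (3026, 827 and 781 cells) stand beside this comparison, and against them 228 of 10213 genes were higher (2.23%) and 231 lower (2.26%). Without the no ablation library, which held most members, 169 genes were higher and 122 lower than in the other glia, and without the library labelled Sws2-ablation 376 and 395. The members were deeper cells, with medians of 5253, 6871 and 7919 UMIs against 4296, 6141 and 5367 in the other glia. Among cells of 4000 to 12000 UMIs 351 genes were higher and 298 lower.

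The ligand genes fgf8a and fgf8b were higher in the members. fgf8a (ENSDARG00000003399) stood at 80.2, 62.4 and 23.5 CPM in the members and at 46.9, 18 and 11.4 CPM in the other glia. Every library showed the higher value in the members, and the difference was a log2 fold change of 1.14 ± 0.15 (SE, 3 libraries, edgeR adjusted p = 7.88e-05). fgf8b, its duplicate (ENSDARG00000039615), stood at 86.0, 67.5 and 30.9 CPM against 36.9, 27.5 and 18.1 CPM (1.15 ± 0.11, adjusted p = 2.53e-06). Against the other resting glia both held, at 0.87 ± 0.13 and 1.05 ± 0.12. Of 8 Fgf ligands and receptors tested these 2 passed, none was lower, and the receptor gene fgfr2 was at 15.8, 31.0 and 18.4 CPM against 16.9, 21.9 and 15.4 CPM (adjusted p = 0.664).

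Genes of a list of Fgf feedback and target genes were in part higher. Of 17 feedback and target genes 5 were higher (spry2, spry4, etv5a, il17rd and tob1a) and 2 lower (dusp2 and dusp5), with a median log2 fold change of 0.26 against 0.00 for all genes tested. The study named spry2, spry4 and tob1a for its fgf24 clusters in these same libraries. Their higher levels are therefore no independent evidence of Fgf signalling. spry2, a Sprouty inhibitor, stood at 1149, 426 and 341 CPM in the members and at 839, 261 and 265 CPM in the other glia (0.49 ± 0.08, adjusted p = 0.000891). spry4, of the same family, stood at 502, 253 and 187 CPM against 349, 153 and 134 CPM (0.56 ± 0.09, adjusted p = 0.000296). Both classes held less of these transcripts in the ablation libraries, and the members were the higher class in each library. dusp6, a phosphatase of the MAP kinase branch, was at 252, 83.8 and 98.6 CPM against 207, 75.2 and 81.6 CPM and did not pass (adjusted p = 0.207), nor did etv5b, an ETS transcription factor (adjusted p = 0.495). dusp2, another MAP kinase phosphatase, was lower in all 3 libraries (-0.50 ± 0.11, adjusted p = 0.00649). Against the other resting glia 4 of 13 were higher and dusp2 lower, and il17rd and dusp5 no longer passed (edgeR adjusted p = 0.0843 and 0.951). The etv5a call was lost without the no ablation library (0.079), without the library labelled Sws2-ablation (0.0861) and with the glial gate at 300 per 10000 UMIs (0.165). That of il17rd was also lost without the no ablation library (0.117), without the Lws2-ablation library (0.129) and with the higher glial gate (0.205).

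Several genes of a ventral list were lower in the members. Of 18 tested 7 were lower and 2 higher, with a median of -0.37. The list holds genes that the study named for its rdh10a cluster in these same libraries. rdh10a, aldh1a3, inhbab, bmpr1ba, smoc1, cav1 and cav2 are among them, so their lower levels are no independent evidence of position. rdh10a, a retinol dehydrogenase of retinoic acid synthesis, stood at 232, 105 and 108 CPM in the members and at 494, 299 and 169 CPM in the other glia (-1.14 ± 0.11, adjusted p = 2.53e-06). aldh1a3, the next enzyme of that pathway, stood at 15.0, 14.8 and 6.62 CPM against 60.2, 40.6 and 17.3 CPM (-1.79 ± 0.15, adjusted p = 3.03e-07). inhbab, which encodes an activin subunit, stood at 172, 61.8 and 66.9 CPM against 342, 117 and 133 CPM (-0.99 ± 0.09, adjusted p = 7.91e-07). The members were below the other glia in every library for each of the 3 genes. The largest fall was that of smoc1, a secreted matrix protein gene, at 3.08, 0.603 and 1.47 CPM against 27.0, 21.3 and 14.6 CPM (-3.46 ± 0.24, adjusted p = 2.82e-08). vax1, the ventral homeobox gene, stood at 6.49, 7.23 and 5.15 CPM against 19.9, 17.7 and 9.67 CPM (-1.46 ± 0.19). The caveolin genes cav1 and cav2 were lower by -1.70 ± 0.24 and -1.48 ± 0.21. Against the other resting glia 9 of 16 ventral genes were lower, the same 7 with vax2 and bmpr1ba, at a median of -0.80.

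The 2 ventral genes that were higher were the paired box genes pax2a and pax2b, which in zebrafish mark the optic stalk and ventral fissure. pax2a stood at 24.4, 26.2 and 14 CPM in the members and 10.9, 7.75 and 7.65 CPM in the other glia (1.29 ± 0.17, adjusted p = 6.08e-05), and pax2b passed more narrowly (0.67 ± 0.18, adjusted p = 0.0357). The pax2b call was lost against the other resting glia (edgeR adjusted p = 0.117) and with the glial gate at 300 per 10000 UMIs (0.473). It was also lost without the no ablation library (0.132) and without the Lws2-ablation library (0.337). The pax2a call held in each of these. Of 12 dorsal genes tested none was higher and 2 were lower. efnb2a, the dorsal ephrin, stood at 88.2, 54.3 and 72.1 CPM against 127, 94.9 and 87.7 CPM (-0.58 ± 0.10, adjusted p = 0.00113). The study named efnb2a for other quiescent clusters in these same libraries, so efnb2a is no independent evidence of position. aldh1a2, the dorsal enzyme of retinoic acid synthesis, was lower in the fit (-1.54 ± 0.31, adjusted p = 0.00417) but its levels were 2.77, 4.52 and 8.09 CPM against 10.6, 17.1 and 4.83 CPM, so that the library labelled Sws2-ablation went the other way. The dorsal T-box genes tbx5a and tbx2b did not pass (adjusted p = 0.465 and 0.783). With the glial gate raised to 300 per 10000 UMIs the efnb2a call was lost (edgeR adjusted p = 0.244). Without the no ablation library the aldh1a2 call was lost (adjusted p = 0.221). The dorsal side thus rested on 2 of 12 genes with these limits, and a lower level of dorsal genes as a group is not shown.

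Of 14 retinoic acid genes 5 were higher in the members and 2 lower. The degrading enzyme gene cyp26a1 was higher in the members, at 1008, 982 and 490 CPM against 747, 540 and 361 CPM (0.56 ± 0.09, adjusted p = 0.000397). It did not pass when the glial gate was raised to 300 per 10000 UMIs (adjusted p = 0.419). cyp26c1, of the same family, stood at 265, 231 and 138 CPM against 236, 195 and 133 CPM and did not pass (adjusted p = 0.478). The retinol-binding gene rbp5 was higher (113, 440 and 262 CPM against 73.3, 219 and 189 CPM, 0.69 ± 0.10), and the retinaldehyde reductase gene dhrs3a and the binding protein gene crabp2a were lower (-1.14 ± 0.18 and -1.78 ± 0.27). Their duplicates went the other way, with dhrs3b higher by 0.76 ± 0.15 (adjusted p = 0.00436) and crabp2b by 0.32 ± 0.09 (adjusted p = 0.0467). The dhrs3b call was lost against the other resting glia (edgeR adjusted p = 0.129) and without the no ablation library (0.0851). The crabp2b call was lost without the no ablation library (0.207) and without the Lws2-ablation library (0.445).

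Of 25 genes of glial support 8 were higher in the members and none lower (median 0.21). The members also held more of the gate genes. The medians of glula and apoeb together were 411, 396 and 264 per 10000 UMIs, against 310, 282 and 227 in the other glia. The part of this general glial level in the calls was not tested. cx43, the gap junction gene of glia, stood at 850, 626 and 261 CPM against 561, 266 and 165 CPM (0.81 ± 0.10, adjusted p = 4.08e-05). slc4a4a, a sodium bicarbonate cotransporter, stood at 288, 346 and 157 CPM against 164, 132 and 106 CPM (0.93 ± 0.11, adjusted p = 2.74e-05). cahz, a carbonic anhydrase, and ptgdsb.1, a prostaglandin D2 synthase, were higher by 0.59 ± 0.09 and 0.54 ± 0.07. gfap stood at 404, 453 and 392 CPM against 352, 476 and 367 CPM and rlbp1a at lower values in the no ablation members, neither past the threshold (adjusted p = 0.846 and 0.273). Against the other resting glia 7 of 24 were higher and none lower. With the glial gate raised to 300 per 10000 UMIs the calls of cahz, atp1b4, kcnj10a and mlc1 were lost (adjusted p = 0.0604, 0.312, 0.446 and 0.404). Those of cx43, slc4a4a, ptgdsb.1 and ptgdsb.2 held. The study named cx43 for a cluster with fgf24 and igf2b in these same libraries, so cx43 is no independent evidence.

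Genes outside the lists above were among those with the largest positive fold changes at 50 CPM or more. anks1b, an ankyrin repeat scaffold gene, stood at 95.4, 100.3 and 30.9 CPM in the members and 43.0, 37.8 and 16.1 CPM in the other glia (1.19 ± 0.11, adjusted p = 8.69e-07). rgcc, named as a regulator of the cell cycle, stood at 834, 762 and 365 CPM against 420, 337 and 196 CPM (1.01 ± 0.08, adjusted p = 2.51e-07). espn, an actin-bundling protein gene, stood at 123, 295 and 94.9 CPM against 62.3, 119 and 57.6 CPM (1.02 ± 0.10). sesn3, a sestrin of the stress response, and stc2a, which encodes a stanniocalcin, were higher by 1.04 ± 0.12 and 0.89 ± 0.13. stc2a was also the sole gene of the insulin-like growth factor list to pass, of 13 tested, and the receptor gene igf1rb stood at 45.5, 36.2 and 36.8 CPM against 43.38, 40.0 and 38.1 CPM (adjusted p = 0.943).

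**Figure D2:**
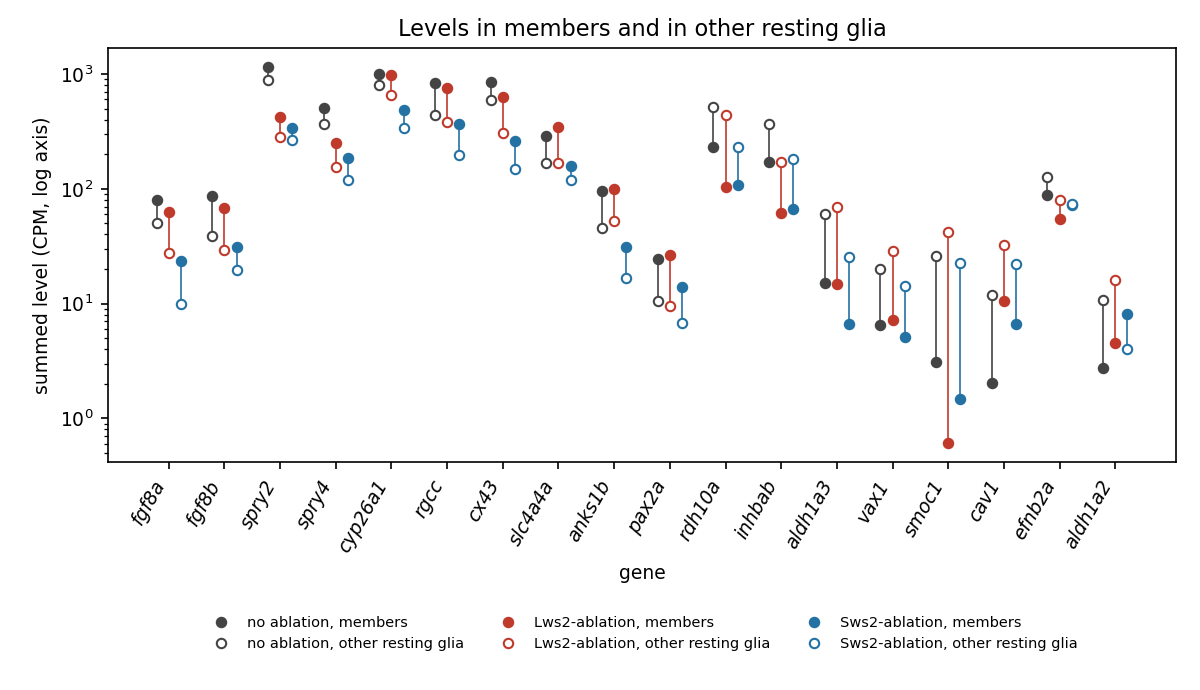
Summed level (CPM, log axis) of 18 genes in the members (filled) and in the other resting glia (open) of each library, joined by a line. fgf8a, fgf8b, the Sprouty genes, cyp26a1, rgcc, cx43, slc4a4a, anks1b and pax2a are higher in the members of all 3 libraries, and rdh10a, inhbab, aldh1a3, vax1, smoc1 and cav1 are lower in all 3.

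Genes of reactive glia were lower in the members, a direction to which the cxcl18b limit contributes by its construction. Of 22 immune and reactive genes 9 were lower than in the other glia and none higher. rgs5b, a regulator of G protein signalling, stood at 22.8, 262 and 303 CPM against 55.4, 833 and 475 CPM (-1.24 ± 0.13, adjusted p = 3.70e-06), and against the other resting glia, held to the same limit, it was lower by -0.62. Under that comparison 4 of 20 were lower (ifi45, ifi46, rgs5b and anxa1a) and socs3b, a feedback inhibitor of cytokine signals, was higher (0.35 ± 0.09, adjusted p = 0.0202). The keratin gene krt18a.1 was lower (12.2, 54.0 and 88.3 CPM against 49.5, 180 and 165 CPM, -1.59 ± 0.14), as was apoc1 (-1.59 ± 0.24), of which the other glia of the Lws2-ablation library held 304 CPM. Markers of microglia were 14.1, 124 and 17.9 CPM in the other resting glia, above the members, and their part in these differences was not tested.

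Of 83 ribosomal protein genes 39 were lower in the members and none higher (median -0.25), and of 13 mitochondrially encoded genes 10 were lower (median -0.42). Against the other resting glia 12 of 79 ribosomal and 11 of 13 mitochondrial genes were lower (medians -0.28 and -0.61). Against the resting glia with fgf24 and no igf2b, described below, none of either group passed (both medians -0.10). Markers of other retinal cells moved with the comparison. Of 15 cone and rod genes 6 were lower in the members and none higher (median -0.72), and of 11 neuronal genes 7 were higher and none lower (median 0.52). Their sums were 104, 203 and 34.6 CPM of cone and rod genes in the members against 316, 259 and 74.6 CPM in the other resting glia, and 872, 798 and 342 CPM of neuronal genes against 673, 715 and 224 CPM. Against the other resting glia 1 of the 11 neuronal genes, gng3, remained. Without the cells with the highest doublet scores, the calls of elavl3, elavl4, snap25a, stmn1b and sncb against the other glia were lost. Their edgeR adjusted p values were 0.0534, 0.992, 0.255, 0.615 and 0.388, and the calls of gng3 and rtn1b held. The calls of the cone genes opn1lw2, arr3a and gnat2 were lost without the no ablation library. The lens crystallin gene crygm2d1 was at 37.7, 3.92 and 0 CPM in the members against 9.77, 3.64 and 0 CPM. The part of RNA from these cells in the differences above was not tested.

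Because fgf24 varied among the glia, resting glia were also set out by their fgf24 UMIs after thinning to 3000 UMIs per cell. In the no ablation library 1193 cells had none, 730 had 1, 612 had 2, 501 had 3 and 829 had 4 or more. Of the genes that were higher in the members, fgf8a, spry4, cyp26a1 and rgcc stood higher with each step, while il17rd (21.8, then 16.4 CPM at 1 UMI) and pax2a (31.9 CPM at 3 UMIs, then 31.0 CPM) did not. fgf8a went from 17.3 CPM at no fgf24 UMI over 49.3, 75.2 and 106.5 to 124 CPM at 4 or more, spry4 from 281 to 579 CPM, cyp26a1 from 459 to 1501 CPM and rgcc from 247 to 1023 CPM. rdh10a went from 724 CPM over 379, 241 and 249 to 168 CPM and aldh1a3 from 97.2 to 10.9 CPM. The largest part of the difference in rdh10a lay between cells with none and cells with 2 fgf24 UMIs. In the Lws2-ablation library rdh10a went from 531 to 84.0 CPM and cyp26a1 from 524 to 1381 CPM between the same ends, and in the library labelled Sws2-ablation from 288 to 92.0 CPM and from 260 to 897 CPM, the last from 29 cells. Cells of 1 library are not replicates, so these values are a description.

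**Figure D3:**
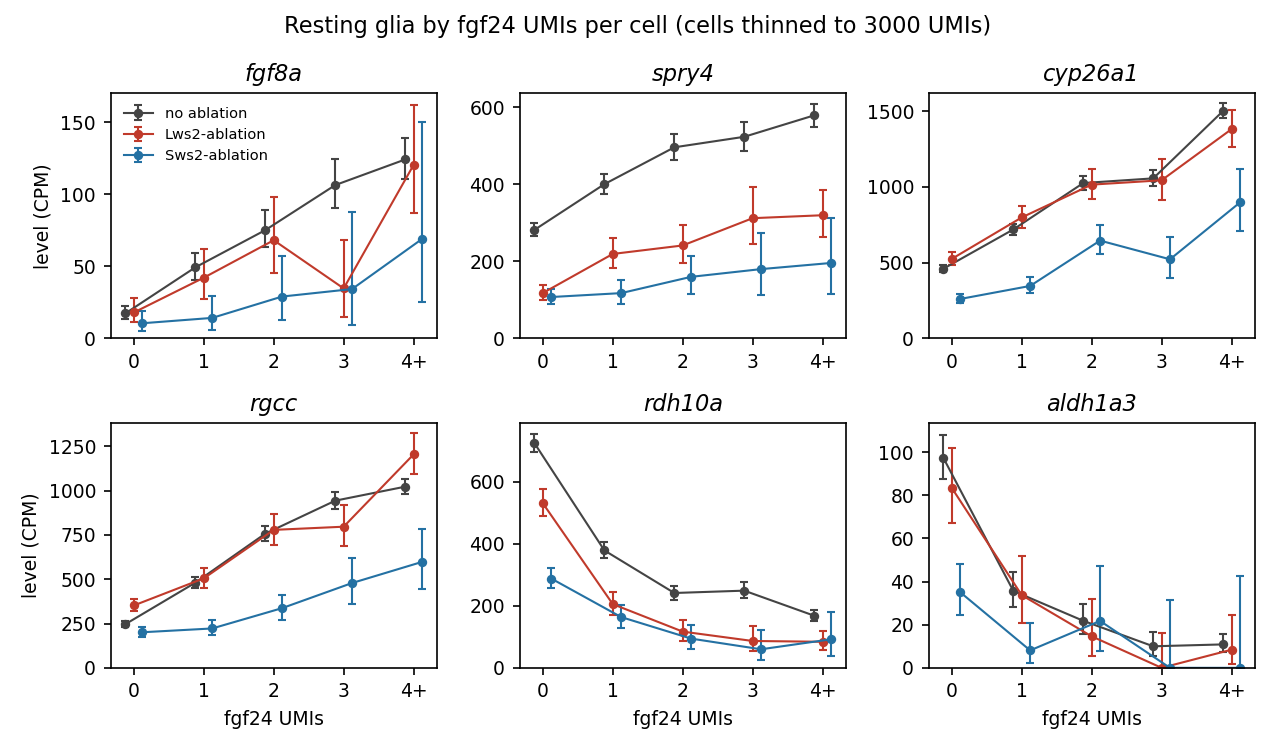
Level (CPM) of 6 genes in resting glia with 0, 1, 2, 3 or 4 and more fgf24 UMIs after thinning to 3000 UMIs per cell, for each library, with 95% exact Poisson intervals. In the no ablation library fgf8a, spry4, cyp26a1 and rgcc are higher in each bin than in the one before, and rdh10a and aldh1a3 end at 168 and 10.9 CPM from 724 and 97.2 CPM.

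The cells most like the members were the 1444 resting glia with at least 2 UMIs of fgf24 and none of igf2b (1128, 161 and 155). By the rule this comparison turned on igf2b alone. Of 9115 genes 36 were higher (0.395%) and 24 lower (0.263%), 80 and 79 without the library labelled Sws2-ablation, and 10 and 15 without the no ablation library. The members were again the deeper cells, with medians of 5253, 6871 and 7919 UMIs against 4947, 5452 and 6598.

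For several Fgf and ventral genes the values lay close to those of the members. fgf8a stood at 80.2, 62.4 and 23.5 CPM in the members and 83.8, 64.7 and 17.9 CPM in them (-0.05 ± 0.11), and rdh10a at 232, 105 and 108 CPM against 243, 112 and 113 CPM (-0.10 ± 0.08). None of 13 Fgf feedback and 10 dorsal genes passed, and inhbab was the 1 of 15 ventral genes that did (-0.51 ± 0.11, adjusted p = 0.0335). The inhbab call was lost without the no ablation library (edgeR adjusted p = 0.0815). fgf8b was higher (0.51 ± 0.11, adjusted p = 0.0353), a call lost without the no ablation library (0.40, adjusted p = 0.726) and in cells of 4000 to 12000 UMIs (adjusted p = 0.0511).

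Both Cyp26 genes were lower in the members. cyp26c1 stood at 265, 231 and 138 CPM in the members and 374, 432 and 203 CPM in the fgf24 glia without igf2b (-0.66 ± 0.08, adjusted p = 0.000366). cyp26a1 stood at 1008, 982 and 490 CPM against 1199, 1194 and 613 CPM (-0.30 ± 0.06, adjusted p = 0.0202), although it was higher in the members than in all other glia. Without the no ablation library the cyp26a1 call was lost (adjusted p = 0.268). The members were lower in both genes in all 3 libraries. foxg1b, a forkhead gene, stood at 829, 316 and 327 CPM against 975, 455 and 463 CPM (-0.41 ± 0.07, adjusted p = 0.00492). The Hes-family genes her12 and her15.2, targets of Notch, were lower by -0.34 ± 0.07 and -0.35 ± 0.06, the activin subunit gene inhbaa by -0.52 ± 0.09 and the claudin gene cldn5b by -0.41 ± 0.08. The proneural gene ascl1a was lower (-1.24 ± 0.25, adjusted p = 0.0177), though not in the library labelled Sws2-ablation, where it stood at 30.9 against 27.3 CPM. olig2, another basic helix-loop-helix gene, was lower in all 3 (-1.02 ± 0.18).

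On the other side glial support genes were higher, 5 of 23 and none lower. The members also held more of the gate genes in this comparison. The medians of glula and apoeb together, on the scale of the glial gate, were 411, 396 and 264 in the members. They were 342, 339 and 234 in the fgf24 glia without igf2b. The part of this general glial level in the calls was not tested. slc4a4a stood at 288, 346 and 157 CPM against 190, 245 and 113 CPM (0.53 ± 0.07, adjusted p = 0.000823), and cx43 and sparc, a matrix protein gene, were higher by 0.32 ± 0.07 and 0.41 ± 0.07. stxbp6l, a gene of the syntaxin-binding family, stood at 86.6, 134 and 51.5 CPM against 49.5, 48.8 and 16.0 CPM (1.04 ± 0.13, adjusted p = 0.000366). The actin-bundling genes vil1 (villin) and espn were higher by 0.61 ± 0.08 and 0.57 ± 0.08. Without the no ablation library the calls of her12, cldn5b, ascl1a, olig2, slc4a4a, cx43, sparc and espn in this comparison were lost, and those of cyp26c1, foxg1b, her15.2, inhbaa, stxbp6l and vil1 held. The her12 call was also lost without the cells with the highest doublet scores (edgeR adjusted p = 0.341). stm, known in zebrafish for a matrix protein of the ear stones, had the largest difference (2.26 ± 0.25), but 95 of its 190 UMIs in the members of the library labelled Sws2-ablation came from 1 cell. Cone and rod genes were again lower, 5 of 10 with a median of -0.78 against -0.01 for all genes tested. Without the no ablation library arr3a and gngt2b went from -1.37 and -1.50 to -0.10 and -0.05 (adjusted p = 0.981 and 0.992). The cone and rod sums were 104, 203 and 34.6 CPM in the members against 323, 231 and 33.9 CPM, and their part in these differences was not tested.

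The same genes were set out by igf2b UMIs in thinned glia with fgf24. In the no ablation library 1344 cells held none, 582 held 1, 278 held 2 and 157 cells each held 3 and 4 or more. cyp26c1 went from 354 CPM over 294, 290 and 166 to 93.4 CPM, her12 from 354 to 106 CPM, and cx43 from 718 to 1172 CPM. Between the same ends spry2 went from 1024 to 1682 CPM and spry4 from 468 to 637 CPM. il17rd went from 21.1 to 63.7 CPM and fgf8b from 60.3 to 151 CPM. The intervals of fgf8a overlapped (80.8 to 99.5 and 93.5 to 159 CPM). These values are a description of cells of 1 library, and no Fgf feedback gene passed the test above. In the Lws2-ablation library cyp26c1 went from 405 to 70.18 CPM, her12 from 573 to 272 CPM and cx43 from 508 to 1096 CPM. rdh10a did not follow igf2b without ablation, at 241, 228, 200.2, 166 and 255 CPM, but after Lws2-ablation it stood at 116 CPM at no igf2b UMI and 35.1 CPM at 4 or more. The library labelled Sws2-ablation held 8 and 3 cells in the 2 upper bins, too few to read.

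**Figure D4:**
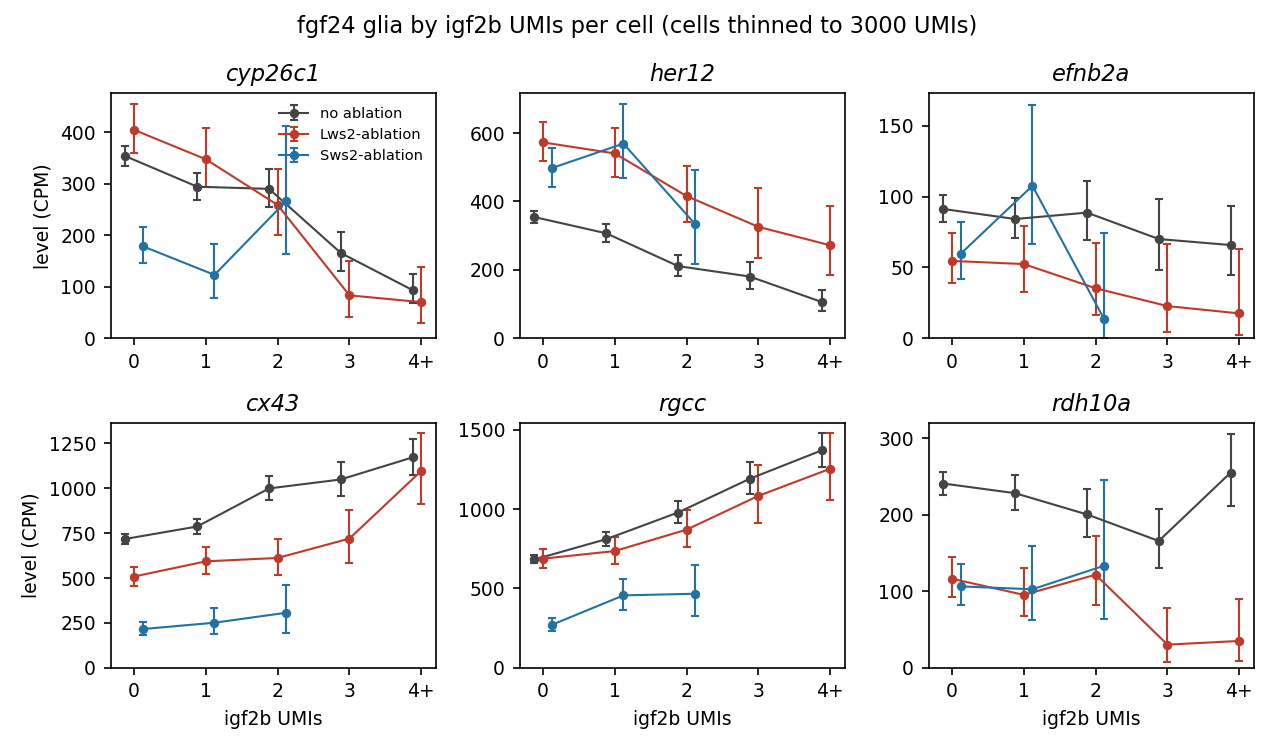
Level (CPM) of 6 genes in resting glia with fgf24, by igf2b UMIs after thinning to 3000 UMIs per cell, for each library, with 95% exact Poisson intervals and bins under 20 cells left out. cyp26c1 ends at 93.4 CPM without ablation and 70.18 CPM after Lws2-ablation, from 354 and 405 CPM, while cx43 and rgcc are higher at 4 or more UMIs than at none in both libraries.

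Between conditions the members of 1 library each can be described, not tested. Genes are called past a 2-fold difference on log2(CPM + 1), among those with at least 50 CPM and 20 UMIs in 1 of the 2 libraries, and intervals are exact intervals of the ratio of 2 counts. After Lws2-ablation 129 of 2419 genes were at least 2-fold higher than without ablation (5.33%) and 81 lower (3.35%). In the library labelled Sws2-ablation 117 of 2379 were higher (4.92%) and 216 lower (9.08%). Scaling by TMM factors moved the log2 ratios by -0.30 and -0.19 and turned the split after Lws2-ablation to 66 higher and 212 lower, and that of the library labelled Sws2-ablation to 337 lower. Both comparisons share the no ablation members.

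The members mostly moved with the other resting glia of their library. All 210 genes past 2-fold after Lws2-ablation had the same direction in the other resting glia, and 150 were past 2-fold there too. For the library labelled Sws2-ablation 331 of 333 had the same direction and 241 were past 2-fold in both.

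Some Fgf feedback genes were past 2-fold lower in the ablation libraries. spry2 stood at 1149 CPM in the no ablation members, 426 CPM after Lws2-ablation (log2 ratio -1.43, interval -1.51 to -1.35) and in the library labelled Sws2-ablation 341 CPM (-1.75, -1.89 to -1.62). Of 9 Fgf feedback genes with enough counts 3 were at least 2-fold lower after Lws2-ablation (dusp6, spry2 and etv5b) and 6 in the library labelled Sws2-ablation, none higher, with medians of -0.86 and -1.38 against 0.01 and -0.14 for all genes. The other resting glia had medians of -0.76 and -1.49 for the same genes. fgf8a was 0.36 lower after Lws2-ablation on the log2 scale (-0.59 to -0.14) and past 2-fold lower in the library labelled Sws2-ablation (-1.73, -2.33 to -1.26). The growth factor genes of the rule stood at 942, 733 and 545 CPM for fgf24 and at 478, 468 and 243 CPM for igf2b, levels that the gates held up.

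rdh10a differed between the members and the other resting glia after Lws2-ablation. The fgf24 glia without igf2b, whose rdh10a levels are given above, lay close to the members with and without Lws2-ablation. The difference was thus not particular to the members. In the members it stood at 232 CPM without ablation and 105 CPM after Lws2-ablation (-1.14, -1.31 to -0.98), in the other resting glia at 511 and 441 CPM (-0.21, -0.29 to -0.13). In the library labelled Sws2-ablation both classes were lower, by -1.09 and -1.15. inhbab was lower in both classes and both libraries, by -1.46 and -1.35 in the members. cyp26a1 stood at 1008, 982 and 490 CPM and the retinol-binding gene rbp5 at 113, 440 and 262 CPM, the last at least 2-fold higher in both ablation libraries (1.95 and 1.2).

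Genes of reactive glia were higher even though cells with cxcl18b had been left out. Of 8 immune and reactive genes with enough counts 6 were at least 2-fold higher after Lws2-ablation (rgs5b, cd99, c7b, ifi45, il6st and socs3b) and of 10 in the library labelled Sws2-ablation 7 were, with none lower. rgs5b stood at 22.8, 262 and 303 CPM (3.47 and 3.68), c7b, a complement gene, at 112.5, 365 and 762 CPM, and socs3b at 551, 1317 and 1001 CPM. txn, the thioredoxin gene, went from 6.06 to 115 and 247 CPM (4.03 and 5.13). lepb, a leptin gene, had 1 UMI without ablation and 111 UMIs in the library labelled Sws2-ablation, where 81.7 CPM compared with 46.1 CPM in the other resting glia. Microglial markers summed to 0.851, 3.32 and 2.21 CPM in these members.

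The cone gene gngt2b stood at 9.68 CPM without ablation and 57.0 CPM after Lws2-ablation in the members (2.44, 2.19 to 2.93) and at 47.0 and 61.1 CPM in the other resting glia. Support genes went different ways. ptgdsb.1 stood at 461, 3744 and 1142 CPM (3.02 and 1.31) and icn, an S100-type calcium-binding protein gene, at 172 CPM without ablation and 3514 CPM after Lws2-ablation (4.35, 4.28 to 4.43). cx43 stood at 850, 626 and 261 CPM, past 2-fold lower in the library labelled Sws2-ablation alone (-1.70, -1.86 to -1.55), where cahz was lower too (-1.08). Among the genes with the lowest ratios were trib3, a pseudokinase of the integrated stress response, at 809.5, 109 and 132 CPM, and mych, a Myc-family gene, at 853 CPM without ablation and 167 CPM after Lws2-ablation. stc2a, higher in the members of every library than in all other glia, stood at 117, 51.5 and 13.2 CPM (-1.16 and -3.05). The other resting glia of the library labelled Sws2-ablation held 14.5 CPM of stc2a, so the members were not above them there. The retinal homeobox gene rx3 was lower after Lws2-ablation (103 to 22.3 CPM, -2.16).

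**Figure D5:**
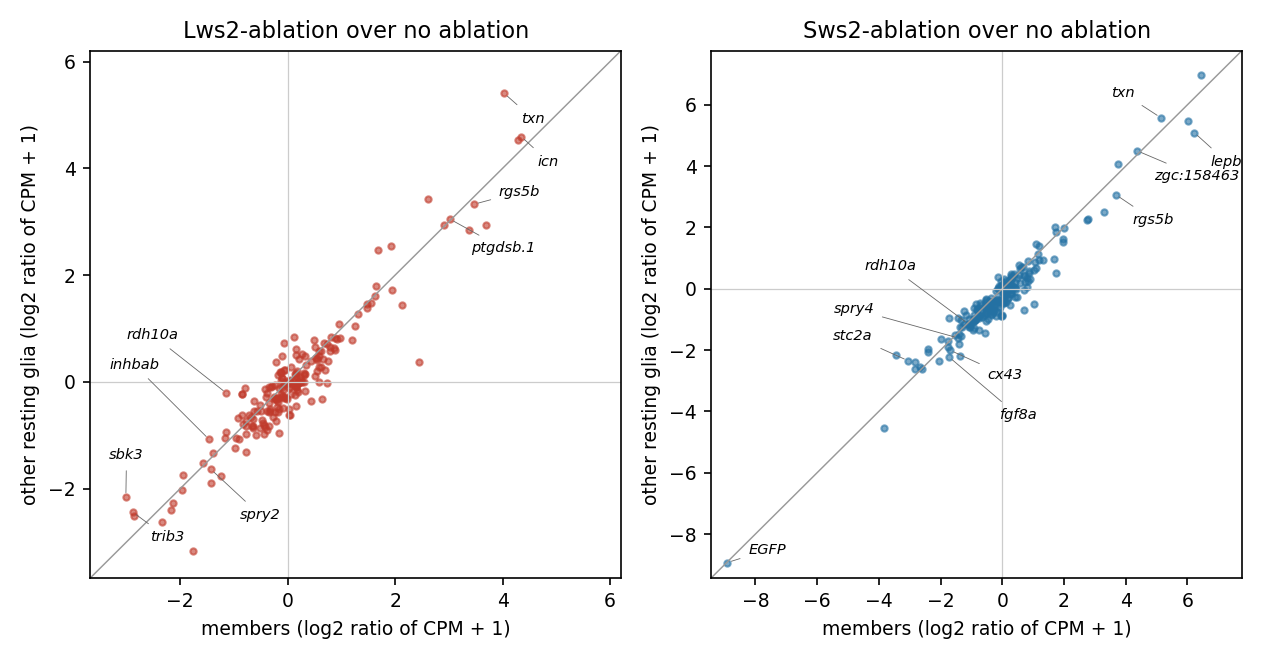
Log2 ratio of CPM + 1 over no ablation in the members (horizontal axis) and in the other resting glia (vertical axis), with 1 point per gene of the named genes and gene lists, for 200 genes after Lws2-ablation (left) and 201 in the library labelled Sws2-ablation (right). Most points lie near the diagonal. On the left the cone gene gngt2b is furthest from it, at 2.44 in the members and 0.37 in the other resting glia, and rdh10a is at -1.14 and -0.21.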

How the data were processed

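The authors deposited raw UMI counts per gene and cell, 1 filtered matrix per library, without normalisation. The submitters' processing notes name Cell Ranger 2.1.1 and the build GRCz11, the matrix headers Cell Ranger 3.0.2. Cells with 200 to 3500, 4500 and 4000 genes and at most 20, 35 and 30% mitochondrial UMIs were kept, in the order of libraries used above. rrm2.1 is the second gene that the files call rrm2. Members and gene lists were chosen with earlier results of these data known. The list of genes the study names for its quiescent clusters, chosen on these samples, had 6 of 26 higher and 11 lower in the members than in the other glia and is no independent evidence.

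Counts were summed per library and class (6 sums) and tested with edgeR 4.0.16 in R 4.3.3 (TMM factors, filterByExpr, library as a block, two-sided quasi-likelihood test, Benjamini-Hochberg adjustment over all genes tested). The 11 rule genes were left out of tests and counts. DESeq2 1.42.0 was an alternative. On simulated counts 85 of 100 genes changed by a log2 of 1 and 38 of 100 changed by 0.58 were recovered for members against other glia. The simulation used a fixed dispersion and gave each changed gene the same effect in every library. It therefore does not give the recovery of the tests on the real libraries. Levels are CPM of summed counts. Intervals are exact, at 95%, and cover counting error only, so values below a few UMIs are imprecise. Named were 10 genes at each end of the fold changes past an adjusted p of 0.05, with at least 50 CPM and 1 direction in all libraries, and genes of the lists. Between conditions the 8 most extreme ratios in each direction were named. Scrublet in scanpy 1.11.5 (Python 3.11.15) marked 3, 0 and 0 cells, so doublets were not removed, and removing the highest scores (537, 870 and 493 cells) was an alternative. Thinning left out 796, 469 and 302 glia under 3000 UMIs.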

Additional observations from a re-analysis of the deposited data

Results flagged for a closer look

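In the members egr4, an immediate early transcription factor gene, was higher in the library labelled Sws2-ablation than without ablation, by 1.04 on the log2 scale (0.68 to 1.43, 58.8 against 28.2 CPM), while in the other resting glia it was lower (-0.50, -0.95 to -0.12). Of its 80 UMIs in the members of that library 25 came from 1 cell. her2, a Hes-family gene, was likewise higher in the members by 1.5 (1.26 to 1.78, 126 against 43.8 CPM) and lower in the other resting glia (-0.59, -0.82 to -0.39), and 27 of its 171 UMIs came from 1 cell. These were the 2 genes past 2-fold that went opposite ways in the classes, and the difference between the classes was not tested.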

How the results depend on the processing

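No paired analysis was possible because each condition has 1 library; this holds for comparisons between conditions. Members and other glia were paired by library, the block of the tests, and without it 0 genes were higher and 0 lower in both edgeR comparisons (221 and 34 at an unadjusted p under 0.05, against 1982 and 665 with it).

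Against the other glia (340 higher, 309 lower) DESeq2 gave 193 and 133 of 4929 genes with an adjusted p, no filter on low counts 559 lower, and a glial gate of 300 per 10000 UMIs 121 and 125. Leaving out 1 library gave 169 to 376 higher and 122 to 395 lower, the lowest without no ablation. Against the fgf24 glia without igf2b (36 and 24) DESeq2 gave 12 and 10 of 1337, no filter 82 and 66, igf2b of at least 2 UMIs 64 and 46, cells of 4000 to 12000 UMIs 41 lower, removal of the highest Scrublet scores 37 lower, and leaving out 1 library 10 to 80 higher and 15 to 79 lower. Of the named and listed genes past the threshold against the other glia, 58 of 121 lost it without no ablation, 28 of 123 without Lws2-ablation, 13 of 123 without the library labelled Sws2-ablation, 67 of 116 with the higher glial gate and 22 of 122 in cells of 4000 to 12000 UMIs. Against the fgf24 glia without igf2b 21 of 33 lost it without no ablation, 8 of 36 without Lws2-ablation and 0 of 36 without the library labelled Sws2-ablation. Signs turned for irf1b (0.012) and mmp9 (0.19) against other resting glia, isl2b (-0.85) without the highest Scrublet scores and mcm6 (0.11) with the higher glial gate, and the cause was not tested.

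The shares of members were 34.9, 36.6 and 17.4% of resting glia, 41.4, 33.3 and 17.7% with the higher gate and 22.5, 14.6 and 6.39% after thinning. A minimum of 20 CPM gave 288 higher and 166 lower after Lws2-ablation and 286 and 450 in the library labelled Sws2-ablation, and TMM scaling 66 and 212, and 337 lower. The library labelled Sws2-ablation held 165 members, so that its levels near 1 UMI cannot be ordered.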

Other observations

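Some genes of groups outside the comparisons above also differed between the members and the other glia. Of 14 Wnt genes tested 2 were higher and none lower, and both encode secreted inhibitors. The median of the 14 was 0.01, so the group as a whole did not differ. wif1 stood at 13.5, 21.7 and 15.4 CPM against 9.25, 8.12 and 5.10 CPM (1.01 ± 0.20, edgeR adjusted p = 0.00364) and sfrp1a at 7.55, 16.3 and 7.36 CPM against 3.79, 7.47 and 3.76 CPM (1.02 ± 0.21, adjusted p = 0.00417). Both calls were lost with the glial gate at 300 per 10000 UMIs (adjusted p = 0.0605 and 0.148), and that of sfrp1a also without the no ablation library (0.0579). Of 21 Notch and Her genes 1 was higher and 5 lower, the higher being the ligand gene jag1b at 24.1, 29.2 and 22.8 CPM against 14.1, 10.1 and 14.2 CPM (0.98 ± 0.16, adjusted p = 0.000576). her12 was the 1 of 19 that stayed lower against the other resting glia.

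Of 23 genes of glycolysis, hypoxia and glycogen 4 were higher and none lower. vegfaa, a growth factor of vessels, stood at 48.0, 37.7 and 10.3 CPM against 28.9, 14 and 6.44 CPM (0.95 ± 0.15, adjusted p = 0.000392) and egln3, a prolyl hydroxylase, at 39.0, 27.1 and 21.3 CPM against 24.4, 16.1 and 14.2 CPM (0.66 ± 0.13). The study named vegfaa in these same libraries, for an fgf24 cluster that it set apart by the absence of igf2b. With the glial gate at 300 per 10000 UMIs the calls of egln3, slc2a1a and aldocb were lost (edgeR adjusted p = 0.0735, 0.684 and 0.0633). They were also lost without the no ablation library (0.0779, 0.134 and 0.119), and the vegfaa call held in both. Among 10 junction genes cx43 was higher and tjp2b, cldn5a and cldn5b were lower, with tjp2b at 180, 142 and 299 CPM against 328, 253 and 375 CPM (-0.71 ± 0.10, adjusted p = 0.000106).

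The receptor gene notch3 was counted at 36499, 16443 and 38039 CPM in the members, above glula in 2 of the 3 libraries. The vessel and mural list that holds notch3 summed to 36632, 16607 and 38199 CPM in the members. In the other resting glia it summed to 38209, 19944 and 36471 CPM, so such levels were not particular to the members. Whether the reads were rightly assigned to notch3 was not tested.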
